A study of Homo sapiens with 2 samples.

Results

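The 5 long noncoding RNA genes, MALAT1, NEAT1, MIR155HG, NORAD and TUG1, were examined in direct RNA reads of GM12878, a B-lymphoblastoid line transformed with Epstein-Barr virus. Members were the rows of the deposited transcript table with these gene names, and they gave 29 of the 237608 transcript models and 5 of the 16645 annotated genes with a read. Both libraries, replicates 1 and 2, belong to 1 untreated group of the same line. Native RNA from a column extraction was depleted, as the protocol words it, and loaded with the SQK-RNA002 kit on FLO-MIN106D flow cells after a reverse transcription step against secondary structure. No source names separate cultures, so every p-value below measures only the difference between these 2 libraries, which may be technical. No nuclear fraction was made, so the location of the RNAs within the cell was not measured.

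Each of these RNAs acts without being translated, as far as its best known roles go. MALAT1 is a nuclear RNA of the splicing speckles, and NEAT1 is the scaffold of paraspeckles, nuclear bodies that form around its long form. MIR155HG, also called BIC, is the primary transcript from which the processing enzyme Drosha cuts the hairpin of miR-155, a microRNA of activated B cells that is known to be high in cells transformed by this virus. NORAD is mainly cytoplasmic and binds proteins of the Pumilio family, which repress mRNAs. TUG1 is a broadly expressed regulatory RNA found in nucleus and cytoplasm.

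In GENCODE release 29 (GRCh38), MALAT1 (ENSG00000251562.8) lies at chr11:65497688-65506516 and NEAT1 (ENSG00000245532.8) at chr11:65422774-65445540, both on the plus strand. MIR155HG (ENSG00000234883.5) lies at chr21:25561909-25575168 on the plus strand and has 1 annotated transcript, and NORAD (ENSG00000260032.1) lies at chr20:36045622-36050960 on the minus strand, also with 1. TUG1 (ENSG00000253352.9), at chr22:30969245-30979395 on the plus strand, is annotated as a lncRNA of a bidirectional promoter, and the other members as lincRNAs.

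A direct RNA strand is read from its 3′ end, and the standard adapter of the method pairs with A residues there, so the ends of the members are shown first. As background, the mature end of MALAT1 and of the long NEAT1 form is not made by polyadenylation but by RNase P, which cuts before a tRNA-like element. GENCODE release 29 places that element of MALAT1 at chr11:65506117-65506173, with 296 bases of the transcript MALAT1-202 behind it, and that of NEAT1 directly after the last base of NEAT1-202. The 100 bases before each element are given in GRCh38 on the plus strand, with runs of 4 or more A in capitals:
MALAT1, chr11:65506017-65506116: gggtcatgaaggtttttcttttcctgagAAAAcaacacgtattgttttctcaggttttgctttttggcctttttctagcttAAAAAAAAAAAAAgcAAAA
NEAT1, chr11:65445441-65445540: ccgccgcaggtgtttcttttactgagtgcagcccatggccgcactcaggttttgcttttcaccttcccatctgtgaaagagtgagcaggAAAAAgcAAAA
The longest run of letters the stretches share is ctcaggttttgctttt, of 16 bases. The longest A run was 13 bases in MALAT1 and 5 bases in NEAT1, and A made up 60% and 50% of the last 30 bases.

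The annotated ends shown for MALAT1, MIR155HG, NORAD and TUG1 hold the letters AATAAA of the polyadenylation signal. For TUG1 this is the end of 1 of its 20 annotated transcripts. Use of the letters as a signal was not measured. The letters AATAAA, searched on the transcript strand, began 23, 36, 26 and 25 bases before the end of MALAT1-202, MIR155HG-201, NORAD-201 and TUG1-216. The same letters lay in the last 50 bases of 33.3% of the 13837 lincRNA transcripts of at least 300 bases and of 26.2% of all 192779 transcripts of that length. NEAT1-202 did not hold them there. The last 60 bases, with AATAAA in capitals, show these ends (plus strand of GRCh38 except for NORAD, which lies on the minus strand):
MALAT1, chr11:65506410-65506469: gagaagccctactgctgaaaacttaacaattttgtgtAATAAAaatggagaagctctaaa
MIR155HG, chr21:25575109-25575168: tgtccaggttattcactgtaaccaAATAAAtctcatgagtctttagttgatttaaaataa
NORAD, chr20:36045622-36045681: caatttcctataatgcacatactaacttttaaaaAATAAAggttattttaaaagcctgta
TUG1, chr22:30978788-30978847: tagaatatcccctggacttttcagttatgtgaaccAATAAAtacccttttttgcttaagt
Because the table holds no coordinates of reads, which of these ends the reads began at was not measured.

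MIR155HG is shown with the product it is known for. The mature microRNAs from RefSeq (GRCh38.p14), with the seed, bases 2 to 8, in capitals, were found in the fourth exon of MIR155HG-201 at the place their coordinates give:
hsa-miR-155-5p, chr21:25573983-25574006: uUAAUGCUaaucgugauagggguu
hsa-miR-155-3p, chr21:25574022-25574043: cUCCUACAuauuagcauuaaca
The hairpin, annotated as the separate gene MIR155, is 65 bases long and spans bases 88 to 152 of that exon. The first 200 bases of the exon follow, with the letters of both mature microRNAs in capitals:
MIR155HG exon 4, chr21:25573893-25574092: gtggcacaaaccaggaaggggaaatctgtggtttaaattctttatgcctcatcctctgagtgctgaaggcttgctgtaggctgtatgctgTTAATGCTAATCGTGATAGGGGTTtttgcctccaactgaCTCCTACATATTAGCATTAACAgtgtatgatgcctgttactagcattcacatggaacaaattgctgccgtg

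NORAD is shown for its Pumilio motif, TGTANATA, searched on the transcript strand with overlaps allowed. NORAD-201 held 15 matches in 5339 bases, or 2.81 per kb. Of the 4368 GENCODE transcripts between 4805 and 5872 bases, 42.9% held at least 1 match and the median was 0. In this set 3 transcripts had 15 or more, NORAD-201 itself among them. NEAT1-202 held 6 matches in 22743 bases, TUG1-216 held 2 and MALAT1-202 and MIR155HG-201 held 0. In NORAD 3 pairs of matches started 9 bases apart; they are printed with the matches in capitals, on the minus strand:
NORAD, chr20:36049478-36049544: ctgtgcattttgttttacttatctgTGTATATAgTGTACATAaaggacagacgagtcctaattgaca
NORAD, chr20:36048281-36048347: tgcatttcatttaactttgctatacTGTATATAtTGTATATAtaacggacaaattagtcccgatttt
NORAD, chr20:36047645-36047711: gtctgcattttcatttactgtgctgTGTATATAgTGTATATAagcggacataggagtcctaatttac
A match is a description of the letters, not a measured site.

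**Figure D1:**
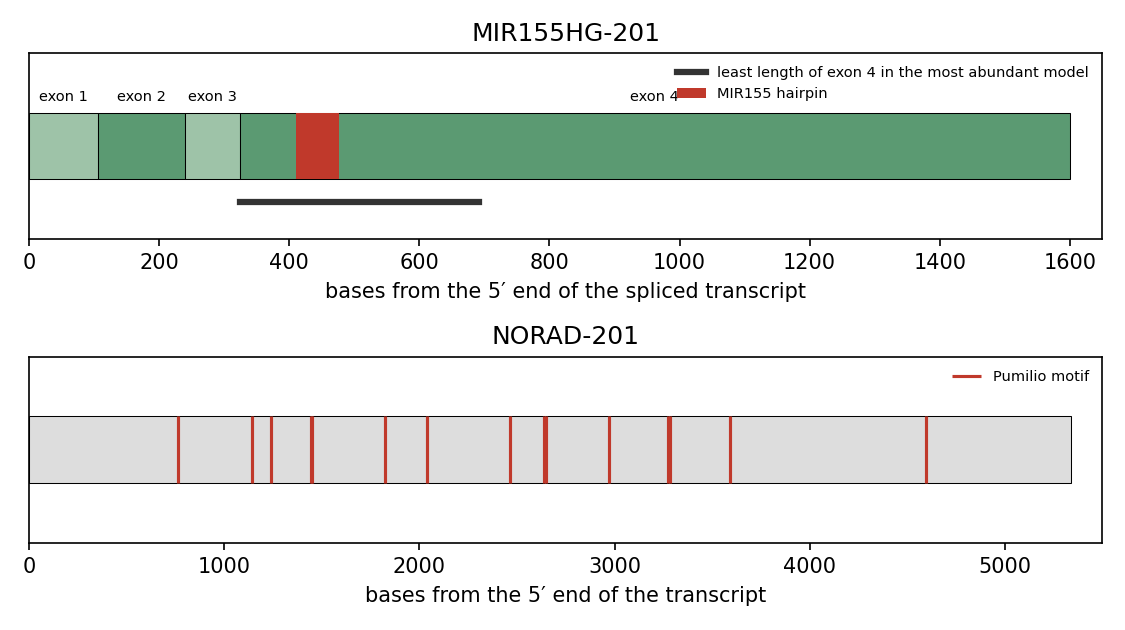
Upper panel: the 4 exons of MIR155HG-201 along the spliced transcript (bases from the 5′ end), the MIR155 hairpin at bases 88 to 152 of exon 4, and the 368 bases of exon 4 that the most abundant model holds at least if it begins within exon 2. Lower panel: the 15 Pumilio motif matches along NORAD-201, the first at base 761 and the last at base 4599.

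Levels are given as CPM, the reads of a gene per 1000000 reads of its library. The libraries had 1360368 (replicate 1) and 1510998 reads (replicate 2), and a single read equals 0.735 and 0.662 CPM. The 5 members took 307 reads (0.0226% of the library, 95% Wilson interval 0.0202 to 0.0252%) and 349 reads (0.0231%, 0.0208 to 0.0257%). Among the reads of the 2389 detected lncRNA genes this makes 2.50% and 2.19%. Models matching an annotated transcript (known) had a share of 55.9% in replicate 1 and 45.9% in replicate 2, and unspliced or mismatched models within genes (genomic) 11.0% and 15.3%. Of 8 B cell markers, all had reads in both libraries, 11854 and 11837 CPM in sum. Of 9 markers of T cells, erythroid cells, liver and fibroblasts, 6 were at 0 in both libraries and the sums were 5.15 and 13.2 CPM; CD3E, a chain of the T cell receptor complex, had the most, with 5 and 16 reads. Intervals here cover counting error only.

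MIR155HG had the most reads of the members. It had 212 reads in replicate 1 (156 CPM, exact Poisson interval 136 to 178) and 218 reads in replicate 2 (144 CPM, 126 to 165). Their mean was 150 ± 8.18 CPM (SD, n = 2). It ranked 9 among the 2389 lncRNA genes with a read. The microRNA host thus held 69.1% and 62.5% of the reads of the 5 members.

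The other members were close to each other. TUG1 had 28 and 37 reads (20.6 and 24.5 CPM), a mean of 22.5 ± 2.76 CPM (SD, n = 2). NORAD had 23 and 33 reads (16.9 and 21.8 CPM) and a mean of 19.4 ± 3.49 CPM, and NEAT1 had 23 and 32 reads (16.9 and 21.2 CPM) and a mean of 19.04 ± 3.02 CPM. MALAT1 had the fewest, with 21 and 29 reads (15.4 and 19.2 CPM) and a mean of 17.3 ± 2.66 CPM (SD, n = 2). How well RNAs whose ends are not made by polyadenylation were captured was not tested. The order of the members is therefore one of reads, not of amounts in the cell.

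In that order, from TUG1 to MALAT1, each neighbour differed from the next by less than the larger of their SDs, and the counting intervals of the 4 genes overlapped in both libraries. MIR155HG stood apart, with 7.57 times the reads of TUG1 in replicate 1 and 5.89 times in replicate 2; its lowest interval bound was 126 and the highest bound of the other members 33.8 CPM. Their ranks among detected lncRNA genes were 53 for TUG1, 66 for NORAD, 68 for NEAT1 and 73 for MALAT1. Per kb of the longest annotated transcript, the levels were 93.8 ± 5.11 CPM for MIR155HG, 3.63 ± 0.653 for NORAD, 3.02 ± 0.370 for TUG1, 1.99 ± 0.305 for MALAT1 and 0.837 ± 0.133 for NEAT1 (SD, n = 2). NORAD and TUG1 differed by less than the SD of NORAD on this scale, and the other neighbours by more than their SDs. The divisor is an annotated length and not the length of the reads. Most MIR155HG reads, for example, fell on a model of 586 bases. A direct RNA read counts a strand whatever its length, so values on this scale are not corrected levels.

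**Figure D2:**
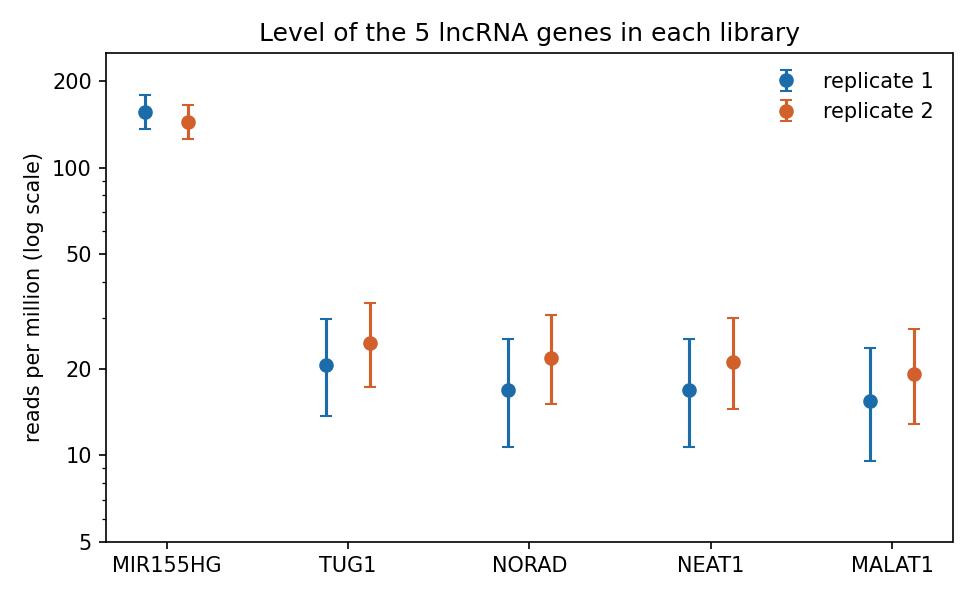
CPM (log scale) of each gene in replicate 1 and replicate 2; bars are exact 95% Poisson intervals. MIR155HG lies at 156 and 144, and the other genes lie between 15.4 and 24.5.

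No member passed the test of a difference in reads between the libraries. The exact binomial test, run over 10634 genes with at least 10 reads and adjusted by Benjamini-Hochberg, called 0 members at an adjusted p of 0.05, against 5.05% of all genes called. At an unadjusted p of 0.05 it was 0 members against 15.8% of all genes. The ratio of replicate 2 to replicate 1 was 0.926 for MIR155HG (exact interval 0.763 to 1.12). It was 1.24 for MALAT1 (0.685 to 2.29), 1.25 for NEAT1 (0.710 to 2.24), 1.29 for NORAD (0.736 to 2.30) and 1.19 for TUG1 (0.709 to 2.02). With 50 to 65 reads per gene, the intervals of the last 4 are wide. They are not adjusted over the genes tested and are not limits of detection, so differences beyond them could also have been missed. On the log2 scale the differences were -0.11 for MIR155HG and 0.24 to 0.36 for the others, while the median of all genes was 0.01.

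How the reads matched the annotation differed among the members. In the deposited categories, known models have the splicing of an annotated transcript, ISM (incomplete splice match) models are those the authors labelled as matching an annotated transcript in part, NIC models recombine annotated splice sites, NNC models have an unannotated one, and genomic models overlap a gene without matching its splicing. All 21 and 29 MALAT1 reads and all 23 and 33 NORAD reads fell on 1 known single-exon model each, MALAT1-202 of 8708 bases and NORAD-201 of 5339 bases. With so few reads, the upper Wilson bound of each other category was 15.5% and 11.7% for MALAT1 and 14.3% and 10.4% for NORAD. NEAT1 had 22 of 23 and 32 of 32 reads on NEAT1-202, the single-exon long form of 22743 bases, and its 1 other read on a 2-exon NNC model of 1510 bases.

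The model length of these 3 genes is not a read length. The annotation gives NEAT1 8 transcripts, 7 of them spliced and of 512 to 3524 bases, and MALAT1 17 transcripts, 16 of them spliced; none of these spliced transcripts had a read. The short NEAT1 form that ends early lies within the span of NEAT1-202, so unspliced reads of the short and the long form cannot be told apart in this table. Assignment to a known model was usual for unspliced genes: among the 200 genes with at least 20 reads in each library whose annotated transcripts all have 1 exon, the median known share was 100%, and 66.5% of them had known reads only. Over all 6340 genes with that many reads, the median known share was 24.8% and 2.38% had known reads only.

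**Figure D3:**
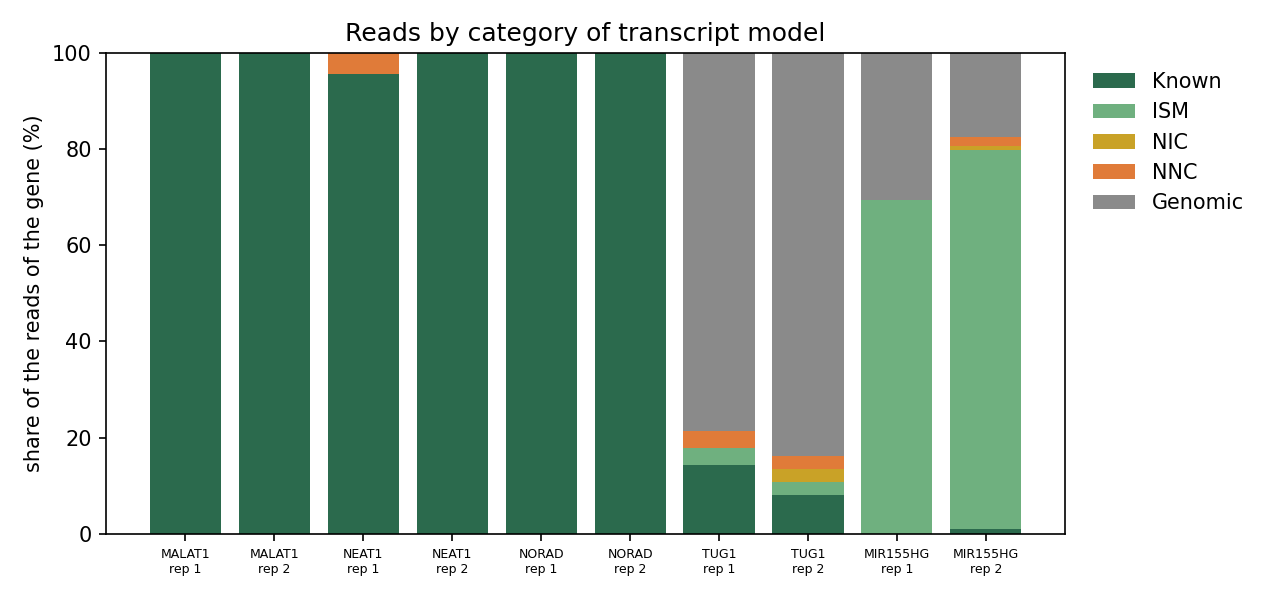
Share of the reads of each gene (%) by category of transcript model, 1 bar per gene and replicate. MALAT1, NEAT1 and NORAD are known or nearly so, TUG1 is mostly genomic at 78.6% and 83.8%, and MIR155HG is mostly ISM at 69.3% and 78.9%.

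TUG1 reads mostly came from 1 unspliced model. Genomic models took 22 of 28 reads in replicate 1 (78.6%, Wilson interval 60.5 to 89.8%) and 31 of 37 in replicate 2 (83.8%, 68.9 to 92.3%), on average 81.2% ± 3.69 (SD, n = 2). Of these, 21 and 31 reads were on ENCODEHT000306568, a single-exon model of 2706 bases. A genomic share over 50% was found in 20.5% of the 6340 genes, and 93.0% of genes had a lower share than TUG1.

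None of the 20 annotated TUG1 transcripts is unspliced. The 6 of them with a read, TUG1-206, TUG1-210, TUG1-212, TUG1-216, TUG1-219 and TUG1-220, had 4 reads in replicate 1 and 3 in replicate 2 in all, and TUG1-216, of 2 exons and 7084 bases, was the longest TUG1 model read, with 0 and 2 reads. The ISM model ENCODEHT000306501, unspliced and of 894 bases, had 1 and 1 read. Spliced models together had 5 of 28 and 5 of 37 reads. Counted anew for each annotated transcript, 12 of 59 exons are at least as long as the 2706-base model (3185 to 4226 bases). Of these 12, 11 are last exons, and most are versions of the same overlapping 3′ exon. Without coordinates the model cannot be placed on any of them.

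Most MIR155HG reads were on spliced models, and 65 of 212 and 38 of 218 on single-exon ones; few matched the whole annotated transcript. The only annotated form, MIR155HG-201 of 4 exons and 1600 bases, had 0 of 212 reads in replicate 1 (Wilson interval 0 to 1.78%). In replicate 2 it had 2 of 218 (0.917%, Wilson interval 0.252 to 3.28%). A known share under 1% was found in 8.23% of the 6340 genes and in 30.4% of the 79 lncRNA genes among them. The most abundant model, ENCODEHT000225961, is a suffix ISM of 3 exons and 586 bases, labelled as matching the 3′ part of the annotated transcript; it had 144 reads (67.9%) and 162 reads (74.3%).

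How much of the exon with the hairpin this model holds depends on where it begins, which the table does not give. Exons 1 to 4 of MIR155HG-201 have 106, 133, 85 and 1276 bases. If the model begins within annotated exon 2, at least 368 bases of exon 4 follow, which takes in the hairpin at bases 88 to 152. If it began at the annotated start of the gene and kept the first intron, 152 bases of exon 4 would follow, up to the last base of the hairpin. The 586 bases of the model are fewer than the 1276 of exon 4 alone, so it does not hold that exon in full. These lengths are of the model and not of each read.

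Single-exon models were the second group of MIR155HG reads. ENCODEHT000226243 of 835 bases had 52 and 33 reads, and ENCODEHT000226238 of 291 bases had 13 and 4. The longest model, ENCODEHT000225960 of 1920 bases, is also unspliced and had 0 and 1 read. A suffix ISM of 2 exons and 894 bases, ENCODEHT000226216, had 3 and 8 reads. Replicate 1 had models of 3 exons or fewer only, since 4-exon models had 0 of 212 reads (Wilson interval 0 to 1.78%). In replicate 2 the 4-exon models had 8 of 218 (3.67%, Wilson interval 1.87 to 7.07%). This difference was chosen after its values were seen and was not tested. Of the 13 models of the gene, 4 had a read in both libraries. The other 9 had reads in replicate 2 alone, 1 or 2 reads each. Over all genes, 152141 models had a read in replicate 1 and 155887 in replicate 2, of 237608 in all. Models with reads in 1 library alone were thus common outside this gene too.

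**Figure D4:**
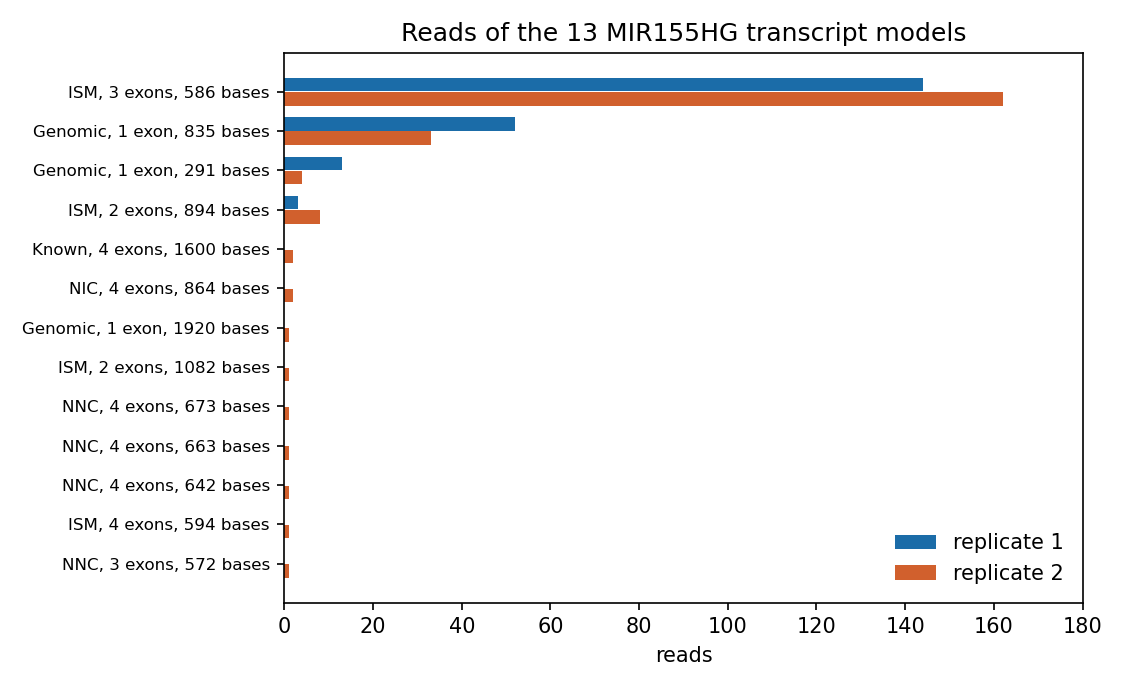
Reads in replicates 1 and 2 of each of the 13 MIR155HG models, named by category, exon number and length. The 3-exon ISM model of 586 bases leads with 144 and 162 reads, and the single-exon model of 835 bases follows with 52 and 33.

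The genomic share of MIR155HG fell between the libraries. Genomic models held 65 of 212 reads in replicate 1 (30.7%, Wilson interval 24.8 to 37.2%) and 38 of 218 in replicate 2 (17.4%, 12.97 to 23.0%), on average 24.05% ± 9.35 (SD, n = 2). Replicate 2 minus 1 was -13.2 percentage points, with an adjusted p of 0.0195 in Fisher's exact test over 6340 genes. Of these genes, 10.4% were called in either direction, and 0.0473% (3 genes) were called lower in replicate 2, while 659 were called higher. The median difference of all genes was 1.91 percentage points, and 0.710% of genes had a lower difference than MIR155HG.

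This call was lost under 1 way of counting the hairpin gene. MIR155, whose annotated single-exon model of 65 bases (MIR155-201) lies inside exon 4, had 5 reads in replicate 1 and 15 in replicate 2 of its own. Its log2 ratio was 1.34, with 0.376 as the adjusted p in the exact binomial test. These reads were added to MIR155HG as genomic reads, an alternative chosen after seeing the data. The shares were then 32.3% and 22.7%, and the difference was -9.51 percentage points. The adjusted p was 0.161 in Fisher's exact test, so the call was lost. With more of these reads in replicate 2, adding them as genomic could only make the fall smaller. Adding them as reads of another category was not tested. The ISM share of MIR155HG was 69.3% (62.8 to 75.2%) and 78.9% (73.0 to 83.8%), on average 74.1% ± 6.76 (SD, n = 2).

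The other members passed no test of these shares. In TUG1 the genomic share differed by 5.21 percentage points (adjusted p of 1, Fisher's exact test) and the known share by -6.18 points (adjusted p of 0.696). Among models with at least 2 reads both directions reversed, to -4.28 and 5.88 points. In the test of the known share 0 of 5 members were called, against 27.1% of all genes called (26.9% lower and 0.268% higher in replicate 2). The test could hardly call these members, so no conclusion is drawn from the count. MALAT1 and NORAD had known reads only, and MIR155HG had 0 of 212 in replicate 1, so its share could not fall. TUG1 had only 4 of 28 and 3 of 37 known reads. MALAT1 and NORAD had the same shares in both libraries, and the NEAT1 known share was 95.7% and 100% (adjusted p of 0.660, Fisher's exact test).

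**Figure D5:**
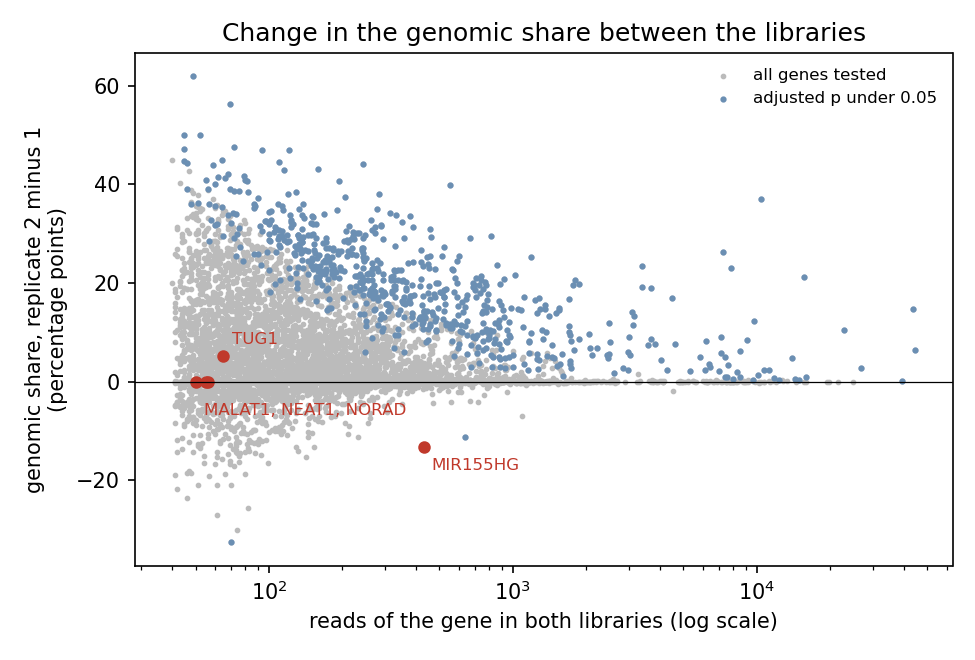
Difference in the genomic share (percentage points, replicate 2 minus 1) against the reads of a gene in both libraries (log scale) for 6340 genes; blue points passed an adjusted p of 0.05 and members are in red. MIR155HG lies at -13.2 among few called genes below 0, TUG1 at 5.21 and the other members at 0.

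The read-weighted mean model length of MIR155HG was 633 bases in replicate 1 and 651 in replicate 2, and that of TUG1 was 2794 and 3051 bases. Both were longer in replicate 2, while 83.6% of the 6340 genes had a shorter mean there, with a median difference of -185 bases. The MIR155HG difference was only 17.5 bases, and few reads move the TUG1 mean. TUG1 models of 7084 and 6508 bases had 2 and 1 reads, in replicate 2 only. Those of 6154 and 5875 bases had 1 read each, in replicate 1 only. The medians over reads were 586 bases for MIR155HG and 2706 bases for TUG1 in both libraries, and by the median 48.4% of genes were shorter in replicate 2. For MALAT1 and NORAD the mean was the length of their only model, and for NEAT1 it was 21820 and 22743 bases.

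Other genes within the span of the members were looked up to see where their reads could have gone. GENCODE lists 15 such genes or genes directly next to a member, among them AP000769.2 opposite MALAT1, AC004542.1 and AC004542.2 opposite TUG1, and MIR612 within NEAT1. Of the 15, only MIR155 had a row in the table.

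Of the genes listed for their work with these RNAs, none passed the gene test, which called 5.05% of all genes, a rate at which lists this short hold few calls or none. The 11 paraspeckle proteins, which assemble on NEAT1 or are found with it, were all tested and 0 were called (median log2 ratio -0.05). HNRNPK, an RNA-binding protein that acts on NEAT1 3′ end choice, had 593 ± 32.2 CPM (SD, n = 2) and NONO, a core paraspeckle protein, 335 ± 8.08. Of 6 proteins reported to bind NORAD, 0 were called (median -0.01); the 2 with most reads were the RNA-binding proteins RBMX, with 269 ± 6.67 CPM, and KHDRBS1, with 230 ± 20.01 CPM. Of 14 listed symbols of RNase P and tRNA 3′ processing, MALAT1 end binding and microRNA processing, 13 had reads and 0 were called (median -0.32); the other symbol, RNASEP1, matched no gene name of the table. ELAC2, the enzyme that trims tRNA 3′ ends, had 75.8 ± 16.5 CPM, and RPP30, an RNase P subunit, 53.1 ± 14.3. DROSHA, which cuts the miR-155 hairpin from its host, had 46 and 25 reads (adjusted p of 0.0677, exact binomial test).

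The other microRNA hosts listed here, all named as MIR host genes, were read far less than MIR155HG. Hosts under other names were not listed as such. Of 16 listed host genes, 10 had a read and 6 could be tested; 0 were called, and their median log2 ratio was 0.65. The 2 with most reads were MIR193BHG, with 9 and 24 reads, and MIR210HG, with 7 and 26 reads (adjusted p of 0.0511, exact binomial test); their means were 11.2 ± 6.55 and 11.2 ± 8.53 CPM (SD, n = 2), against 150 for MIR155HG.

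Of 24 other regulatory noncoding RNAs, 15 had a read, 11 were tested, 1 rose and 1 fell (median log2 ratio 0.50, against 0.01 over all genes, of which 2.72% were called higher and 2.33% lower). DANCR, a small nucleolar RNA host, fell from 247 to 186 reads, or -0.56 on the log2 scale (adjusted p of 0.00260, exact binomial test), and at 152 ± 41.3 CPM (SD, n = 2) its level was within the SD of that of MIR155HG. RMRP, the RNA of RNase MRP, had 0 and 10 reads (adjusted p of 0.0452, exact binomial test). Against a floor of 3 reads in replicate 1, its level in replicate 2 was 3.00-fold higher. This fold leaves out the counting error of the 10 reads. EPB41L4A-AS1 had 58 and 70 reads, 44.5 ± 2.61 CPM.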

How the data were processed

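Both libraries of GM12878 were read by direct RNA sequencing. The deposited table holds raw counts of reads for each transcript model, not normalized, with the exon number and bases of each model; its name shows TALON. The submitters' processing notes name minimap2 and hg38; the filters and the annotation are not given in the sources used here. All 23533 known models matched GENCODE release 29 in length and exon number, so positions and transcript sequences came from it. Gene counts were sums over models, and CPM used library totals. Genes with at least 10 reads in both libraries together were tested with a two-sided exact binomial test, and shares of reads with Fisher's exact test over genes with at least 20 reads in each library (scipy 1.17.1); p-values were adjusted over all genes by Benjamini-Hochberg with a threshold of 0.05. Log2 ratios used 0.5 added reads. Intervals are 95%. Both tests were checked only on simulated counts without variation beyond counting error, with changes placed in deeply read genes. The check does not cover changes in genes with as few reads as the members other than MIR155HG. edgeR 4.0.16 and DESeq2 1.42.0 gave alternative scalings only. Named were the 5 members, per member the 3 models with most reads, every known model with a read and the longest model, and, of 5 gene lists, the 2 genes with most reads and every gene called; DROSHA was added after its values were seen. Members and lists were chosen with earlier results of these data known.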

Additional observations from a re-analysis of the deposited data

How the results depend on the processing

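No paired analysis was possible because both libraries form 1 group. Without 1 replicate only the other's level is left (226 to 231 CPM for the 5 members together), which lies within 1 SD of the mean by arithmetic and says nothing about stability. No member that could be tested was called in the gene test under any of the 11 alternatives; with known models only MIR155HG and TUG1, and with known and ISM models only TUG1, had too few reads to be tested. Of all genes, 537 were called; with known models only it was 1042, of which 31.1% were higher in replicate 2 in place of 53.8%, and all genes had a median log2 ratio of -0.26. With genomic models left out 41.5% were higher, the MIR155HG log2 ratio reversed to 0.21 and that of TUG1 to -0.080, while all genes had a median of -0.080; with known and ISM models only MIR155HG was at 0.13. These ratios passed no threshold. The fall of the MIR155HG genomic share was called under 4 alternatives (adjusted p of 0.0207 to 0.0332, Fisher's exact test). It was lost with the MIR155 reads added as genomic reads, a choice that could only make the fall smaller. Among models with at least 2 reads, the TUG1 differences reversed to 5.88 points for the known and -4.28 for the genomic share. The share of genes with shorter models in replicate 2 was 83.6%, 48.4% by the median over reads and 80.3% with models of at least 2 reads. The summed level of the members was 228 CPM, 58.5 with known models only and 174 with genomic models left out. These subsets hold fewer reads by construction. Depth limits the members other than MIR155HG, which had at most 37 reads in a library.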

Other observations

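MALAT1, NEAT1 and NORAD have 1 annotated single-exon model each. Over the whole table, 102 genes with 2 or more annotated single-exon models had a read on at least 1 of these, and 19 of the 102 had reads on more than 1. Known single-exon models under 100 bases, such as MIR155-201, numbered 126 and held 4844 reads in replicate 1 and 6160 in replicate 2. In the 2029 genes whose annotated transcripts all have 1 exon, known models held 99.5% of 89577 reads and 99.6% of 98988 reads.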
